A study of Mus musculus with 12 samples.

Results

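The data described here are the DNA ratios of mouse chromosome 4 beyond its first 15 Mb in 12 liver tumors. The members were all 2380 probes of the array, control spots aside, that start above position 15000000 of chromosome 4 in the mouse genome build NCBI36 (mm8), out of 42404 probes in all (5.61%). Chromosome 4 was chosen because its measured ratios were low in some of these tumors, so its level against 0 and against other chromosomes is given as a description with no test. The tests between the groups of tumors drew on the same ratios and are not independent of this choice. The probes span chr4:15054655-155029031 (139.97 Mb) with a median spacing of 20.7 kb, and they carry 1119 gene names, while 307 of them have no gene name. Shallow low ratios ran along the whole region beyond 15 Mb in 3 tumors and over its distal end in 1 more, and the other 8 tumors showed neither.

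The tumors came from Mdr2-KO/FVB mice, which lack the hepatocyte transporter Mdr2 (Abcb4) and develop chronic liver inflammation followed by hepatocellular carcinoma. The 6 post-PHx tumors (PHx1M to PHx6F, 4 from males and 2 from females) were taken at 9 months of age from mice that had undergone removal of 70% of the liver (partial hepatectomy, PHx) at 3 or 6 months, and the 6 spontaneous tumors (Spon1M to Spon6F, 2 from males and 4 from females) from untreated mice at 13 or 14 months, so treatment and age cannot be told apart. Array-based comparative genomic hybridization (aCGH) set the DNA of each tumor, labelled with Cy5, against Cy3-labelled DNA of non-tumor liver taken from that mouse at a distance from the tumor, which carried the same knockout, and each tumor was measured on 1 array with no dye swap. Values below are log2 ratios of tumor over non-tumor liver, after the autosomal median of each array was set to 0, so that 0 is the typical autosomal level of that tumor.

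A stretch with less DNA in the tumor than in the reference gives a ratio below 0. A loss carried by a share of the cells, or a tumor sample with normal cells in it, gives a shallower ratio than a loss in every cell, and these cannot be told apart on an array. Mouse chromosome 4 holds the cell cycle inhibitor genes Cdkn2a and Cdkn2b, and its distal end, with Trp73, Chd5 and Kif1b, corresponds to the end of the short arm of human chromosome 1, a stretch often lost in human tumors, among them liver tumors.

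The region also holds microRNA genes with well-studied roles in growth control, and the mature sequences of 8 of them are shown. They are shown because the genes next to most of them had the region-wide or the distal low levels described below. The host gene of miR-30c and miR-30e did not. RefSeq (GRCm38.p6) lists 83 mature microRNAs on chromosome 4. Their expression was not measured here, and the values given are DNA ratios of the nearest genes with probes. Capitals mark the seed, bases 2 to 8, which pairs with target messages.
miR-31-5p: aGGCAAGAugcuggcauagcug
miR-101a-3p: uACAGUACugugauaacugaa
miR-30c-5p: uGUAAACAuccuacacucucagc
miR-30e-5p: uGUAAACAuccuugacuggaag
miR-34a-5p: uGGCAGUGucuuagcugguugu
miR-200a-3p: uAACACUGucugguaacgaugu
miR-200b-3p: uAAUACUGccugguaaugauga
miR-429-3p: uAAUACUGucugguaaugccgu

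miR-30c and miR-30e shared the seed GUAAACA, miR-200b and miR-429 shared AAUACUG, and miR-200a, with AACACUG, came from the same cluster. miR-34a, a target of p53 that slows the cell cycle, lies between H6pd and Gpr157, whose 4 probes at chr4:148838509-148947176 had median log2 ratios of -0.21 in PHx5M, -0.25 in Spon1M, -0.44 in Spon2M and -0.23 in Spon5F and of -0.04 to 0.15 in the other 8 tumors. The miR-200 cluster, which maintains the epithelial state, lies between Ttll10 and 9430015G10Rik near the distal end, and its 4 neighbouring probes gave -0.11, -0.17, -0.36 and -0.25 in the same 4 tumors and -0.09 to 0.24 in the others. That these distal genes were low in the same 4 tumors follows from how the microRNAs were chosen. At the miR-200 cluster PHx5M (-0.11) lay close to Spon6F (-0.09). miR-31, next to Ifne1 and Mtap and near Cdkn2a, had neighbours at -0.27 in PHx5M, -0.15 in Spon1M and -0.72 in Spon2M, against 0.22 in Spon5F. The neighbours of miR-101a, Jak1 and Ak3l1, were closer to 0, at -0.11, -0.13 and -0.08 in the same 3 tumors. The 2 probes of Nfyc, the host gene of miR-30c and miR-30e, had their lowest median, -0.06, in Spon2M, and lay at 0.05 in PHx5M and 0.04 in Spon1M, above the level of the chromosome in these tumors.

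The arrays stood on 3 slides, with PHx1M to PHx4M on slide 1, Spon1M to Spon4F on slide 3, and the 2 last tumors of each group together on slide 2. Of the 2380 probes 2317 to 2373 were measured per array, and 97.0% to 99.5% of spots were well above background in both channels, with none saturated. The spread between neighbouring probes was 0.147 to 0.265, widest in Spon2M, and with the number of arrays it limits the precision. Spon1M, Spon2M and Spon3F stood apart by a set of single probes that deviated in all 3, described at the end, and group values are given with and without them.

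Among the post-PHx tumors the median log2 ratio over the chromosome 4 members was lowest in PHx5M at -0.22, and it reached -0.00012 in PHx4M, 0.0021 in PHx1M, 0.03 in PHx3M, 0.05 in PHx2F and 0.09 in PHx6F. PHx5M alone stood apart from the other 5. Among the spontaneous tumors it was -0.22 in Spon1M, -0.37 in Spon2M, 0.04 in Spon3F, -0.03 in Spon4F, -0.01 in Spon5F and -0.06 in Spon6F. On a linear scale the low values amount to 0.856 times the autosomal level in PHx5M, 0.861 in Spon1M and 0.772 in Spon2M. All 3 of these tumors came from males, of 6 male tumors in all, a pattern seen in the values and given without a test.

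**Figure D1:**
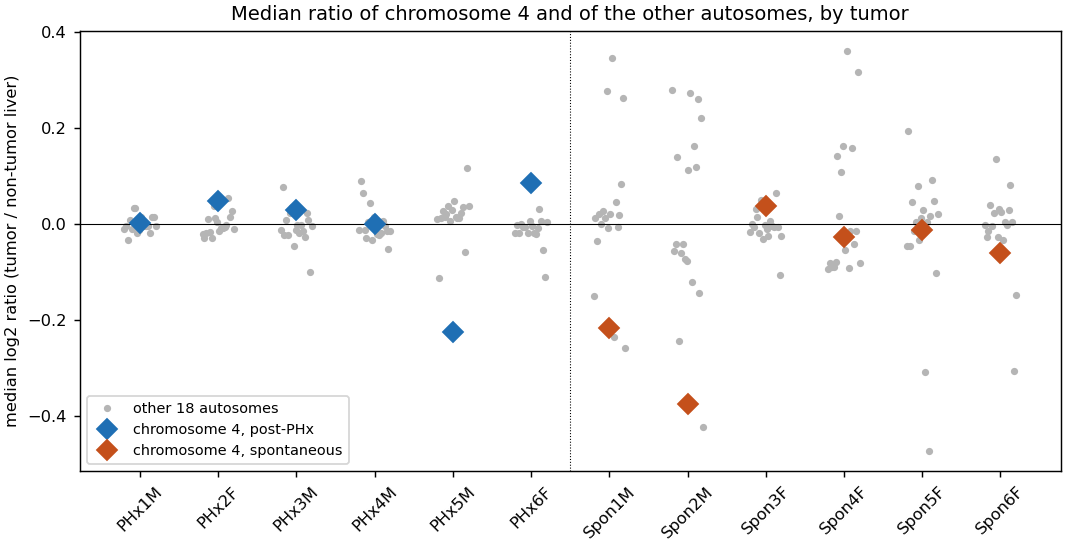
Median log2 ratio (tumor over non-tumor liver) of the chromosome 4 members (diamonds) and of each of the other 18 autosomes (grey points) for 12 tumors. Chromosome 4 lies below all other autosomes in PHx5M and has rank 2 from the lowest in Spon2M and rank 3 in Spon1M.

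The place of chromosome 4 among the 19 autosomes differed between these 3 tumors. In PHx5M it was the lowest autosome, and the next lowest, chromosome 2, was at -0.11, so chromosome 4 was the single autosome of this tumor with a median below -0.2. In Spon1M it had rank 3 from the lowest, after chromosome 19 at -0.26 and chromosome 13 at -0.24, beside chromosome 12 at 0.35. In Spon2M it had rank 2, after chromosome 19 at -0.42, and the highest autosome, chromosome 1, was at 0.28. In Spon6F it also had rank 3, at a median of -0.06.

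The low level ran along the whole chromosome in these 3 tumors. Of the 122 bins of 1 Mb with at least 3 member probes, 120 in PHx5M, 121 in Spon1M and 120 in Spon2M had a mean below -0.1, and all 122 were below 0 in each of them. Over all autosomes such bins made up 13.8% in PHx5M, 23.7% in Spon1M and 26.5% in Spon2M. The chromosome was chosen on these ratios, so the comparison is a description. In the other post-PHx tumors the number of chromosome 4 bins below -0.1 was 11 in PHx1M (11.6% of all autosomal bins), 1 in PHx2F (6.71%), 5 in PHx3M (7.1%), 13 in PHx4M (8.65%) and 2 in PHx6F (12.7%). In the other spontaneous tumors it was 27 in Spon3F (25.9%), 11 in Spon4F (19.6%), 30 in Spon5F (23.1%) and 40 in Spon6F (14.4%). Of these 9 tumors, Spon6F was thus the one furthest above its own autosomal share, with 32.8% of its chromosome 4 bins.

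**Figure D2:**
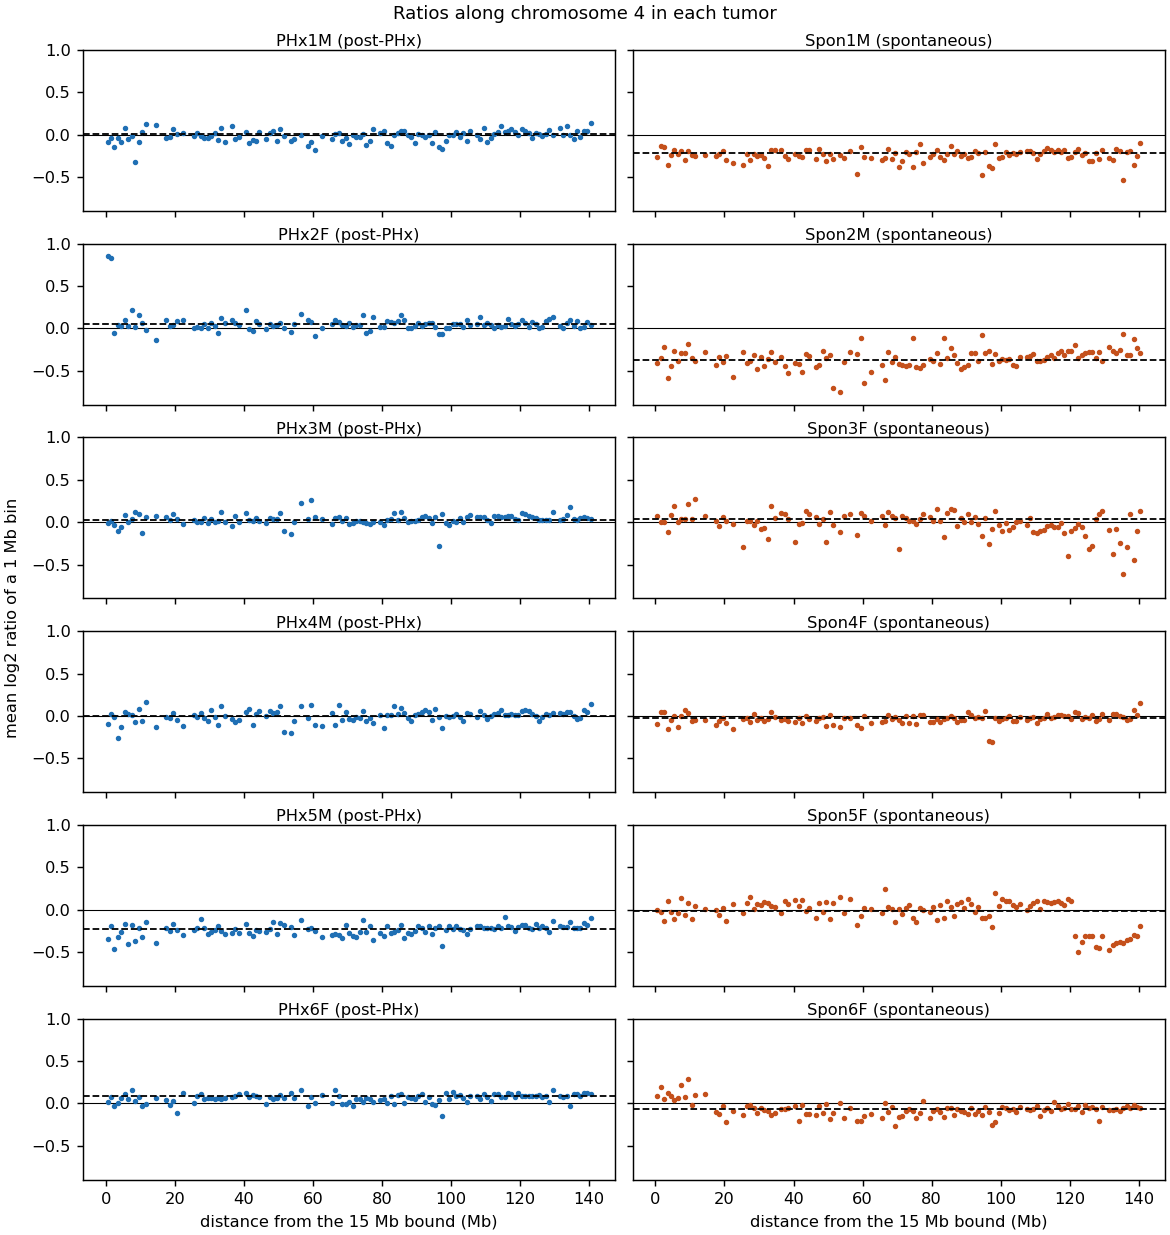
Mean log2 ratio of each 1 Mb bin with at least 3 probes against its distance from the 15 Mb bound, 1 panel per tumor. The dashed line marks the median of the members. PHx5M, Spon1M and Spon2M lie below 0 throughout, Spon5F drops over its distal end, Spon6F and PHx2F are raised at the proximal end.

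Within windows of 10 Mb the level varied little in PHx5M, where the 15 window medians lay between -0.33 and -0.19, and in Spon1M, where they lay between -0.27 and -0.18. Those of Spon2M lay between -0.46 and -0.31. Spon5F had the widest range, from -0.34 to 0.08. Averaged over the 12 tumors, the window from 80 to 90 Mb, which holds Cdkn2a, was the lowest at -0.09, and the window from 130 to 140 Mb the highest at -0.04, a difference smaller than the spread between the tumors.

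The ratio sets a tumor against its own liver, so a low ratio can come from either channel, and each channel was compared with its median in the other 11 arrays. In PHx5M the Cy5 signal of the tumor deviated by -0.16 on the log2 scale and the Cy3 signal of the non-tumor liver by 0.02. In Spon1M these deviations were -0.19 and -0.0030, and in Spon2M -0.36 and 0.0060. The low ratios of the 3 tumors therefore lay in the tumor channel. On chromosome 4 the liver channel stayed within the range of the other autosomes of the same array in all 3. The tumor channel also lay within this range in Spon1M (-0.22 to 0.28) and Spon2M (-0.41 to 0.32). In PHx5M it lay at -0.156, just below the lowest other autosome at -0.152, so this range does not set the channels apart.

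**Figure D3:**
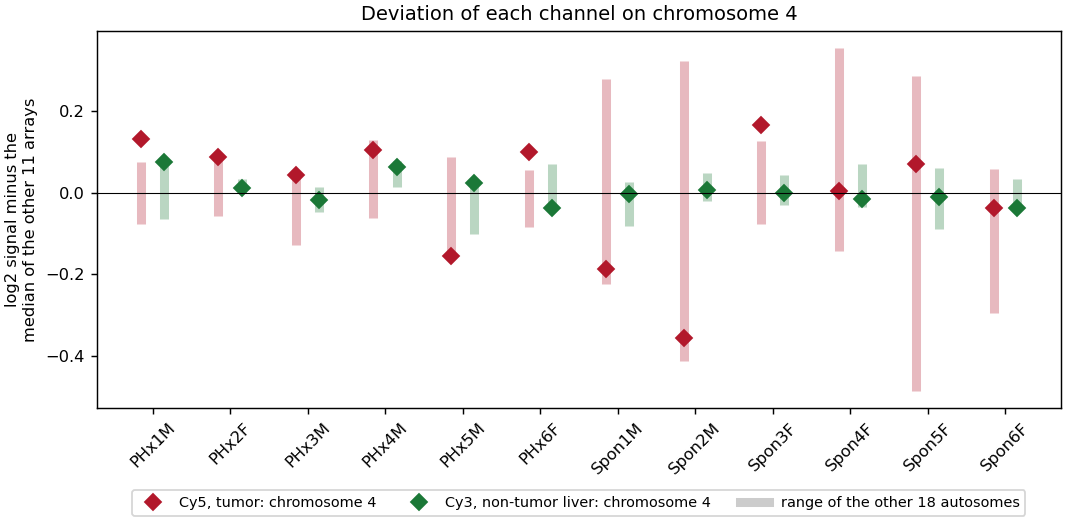
Deviation of the Cy5 (tumor) and Cy3 (non-tumor liver) log2 signal on the chromosome 4 members from the median of the other 11 arrays (diamonds), with the range of the medians of the other 18 autosomes (bars), for 12 tumors. The Cy5 deviation is -0.16 in PHx5M, -0.19 in Spon1M and -0.36 in Spon2M, with Cy3 deviations of at most 0.02 in size.

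Spon5F showed a different shape, a step inside Epha8, a gene of the ephrin receptor tyrosine kinases. Its probe at chr4:136201948-136202007 had a log2 ratio of 0.18, as had the neighbouring probe of C1qa, a complement gene, at 0.18. The next probe, also in Epha8 at chr4:136214867-136214926 and 12.9 kb further on, had -0.49, followed by probes of Zbtb40 at -0.63 and -0.46. From there to the end of the chromosome the median of 495 probes was -0.34 (0.792 times the autosomal level), against 0.06 over the 1872 member probes before it. The step was chosen from the values of Spon5F. In the other 11 tumors the level beyond this position differed from that before it by -0.02 to 0.06, against -0.40 in Spon5F.

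**Figure D4:**
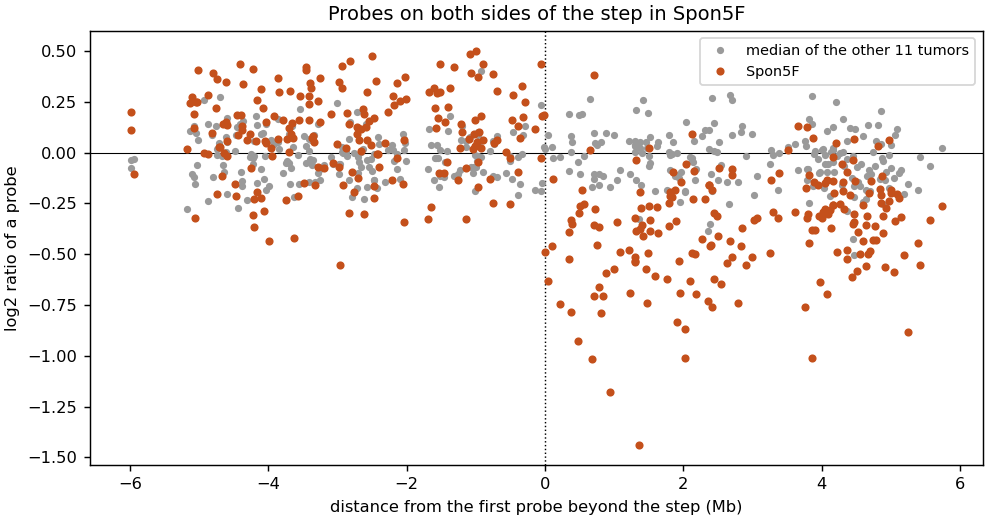
Log2 ratio of single probes within 6 Mb of the first probe beyond the step, for Spon5F and for the median of the other 11 tumors. In Spon5F, 29.0% of 207 probes before the step and 94.0% of 200 probes after it lie below 0.

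Beyond the step the Cy5 signal of Spon5F deviated from the other arrays by -0.30 and its Cy3 signal by 0.0084, while before the step these values were 0.13 and -0.02. The stretch held 261 gene names, of which 242 (92.7%) had a mean log2 ratio below -0.1 in Spon5F, and 132 were below -0.1 in PHx5M, Spon1M, Spon2M and Spon5F alike. Of 13 tumor suppressor or DNA repair genes with a probe in the stretch, all 13 were below -0.1 in Spon5F, from -0.19 for Dffb, a nuclease gene of apoptosis, to -0.70 for Trp73, a relative of p53. Of these 13, 9 were below -0.1 in all 4 tumors, among them Prdm2, Chd5, Kif1b, Epha2, Sdhb and Errfi1. In Spon5F the value was also below -0.1 for 8 of 9 hepatocyte or metabolic, 7 of 8 immune and 7 of 8 growth signalling genes. The stretch was thus low in Spon5F whatever the gene list. Below -0.1 in all 4 tumors were 3 of 9 hepatocyte or metabolic genes (H6pd, Acot7 and Pla2g2a). So were 4 of 8 immune genes (Padi4, Tnfrsf1b, Tnfrsf9 and Tnfrsf14) and 2 of 8 growth signalling genes (Frap1 and Dvl1). Over all autosomes 6.85% of genes were below -0.1 in PHx5M, Spon1M and Spon2M together, and 23.1% of 1 Mb bins in Spon5F. The share of all autosomal genes in Spon5F or in all 4 tumors was not computed. Nothing is read from these counts or from the 9 of 13, because the chromosome and the step were chosen on these ratios.

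The proximal end behaved separately in several tumors. In PHx2F a gain of 98 probes at chr4:8007388-16186673 reached past the 15 Mb bound, and its 20 member probes, over Calb1, Decr1, Nbn and Ripk2 among others, had a median of 0.81 (1.76 times), against 1.56 (2.95 times) over the 78 probes below the bound. Beyond it the median fell to 0.05. In Spon1M a gain over 52 probes at chr4:9469402-13892736 with a mean of 0.87 lay wholly outside the members, and the low level began at Slc26a7, at 14536641. In Spon6F the 81 member probes up to Gpr63, at 25087189, had a median of 0.12 and the 2279 probes beyond it -0.06. PHx5M and Spon2M had no such change, since their first 15 Mb lay at -0.25 and -0.41, near the level of the rest. At the bound itself, the probe of Efcbp1 just inside (15054655) ranged from -0.64 in PHx5M to 0.82 in PHx2F and the one just outside (14979828) from -0.35 in PHx5M to 1.56 in PHx2F.

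The bin of each tumor farthest from its own chromosome 4 median gave further local detail. In Spon2M it was the bin from 68 to 69 Mb with Dbc1, a candidate suppressor of cell growth, where 4 probes had a mean of -0.75 against -0.24 to 0.14 in the other tumors. In PHx5M it was the bin of Mmp16, a matrix metalloproteinase, from 17 to 18 Mb, with 3 probes and a mean of -0.46 against -0.22 to 0.05 elsewhere. In Spon5F it was the bin at chr4:137000001-138000000 with Rap1gap, Ece1 and Pink1, with 33 probes and a mean of -0.50. In PHx2F it lay in the proximal gain, from 15 to 16 Mb (0.85). In Spon6F it was the bin from 24 to 25 Mb, at 0.29 against up to 0.22 in the other tumors, inside its raised proximal stretch. That stretch was called as a gain only with the filter described below lowered to 0.1. In Spon1M and Spon3F it was the same bin, from 150 to 151 Mb, with means of -0.54 and -0.61 and higher medians of -0.31 and -0.09. In PHx1M, PHx3M, PHx4M, PHx6F and Spon4F the farthest bins, with means of -0.32 to -0.15, held 3 to 18 probes each. The lowest other tumor in these bins lay at -0.37, -0.37, -0.59, -0.42 and -0.42. It was always PHx5M, Spon1M or Spon2M, which were low all along the region. These minima alone therefore do not show whether the local low values recur. PHx6F and Spon4F shared their farthest bin, chr4:112000001-113000000, with means of -0.15 and -0.31. In this bin PHx1M lay at -0.17, PHx4M at -0.15, Spon5F at -0.21 and Spon6F at -0.26. PHx2F lay at -0.06, Spon3F at -0.08 and PHx3M at 0.09. The low value of this bin thus recurred in tumors that were not low all along the region. Its cause was not tested.

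To find aberrant regions, each run of probes was scored by its mean weighted by the deposited errors, as the ADM-2 method does, and runs of 2 or more probes with a score from 6 and a mean log2 ratio from 0.4 in size were kept. With this filter a deleted region on the members was called in 0 of 6 post-PHx and 2 of 6 spontaneous tumors (two-sided Fisher's exact test p = 0.455). This test and those with other filters used the ratios on which the chromosome was chosen, and they support no difference between the groups. All of these regions, 2 in Spon1M and 10 in Spon3F, held under 5 probes, and none was called in PHx5M, Spon2M or Spon5F. Over all tumors 31 of 28259 member values lay in called losses, against 0.692% of all autosomal values. With the filter lowered to 0.25, losses were called in 0 post-PHx and 4 spontaneous tumors (Fisher's exact test p = 0.0606), against 2.68% of all autosomal values. They now included the whole of Spon2M (2498 probes, mean -0.34) and the distal stretch of Spon5F (489 probes, mean -0.37). Spon1M and Spon3F again counted only through regions under 5 probes. With a filter of 0.1, losses were called in 1 post-PHx and 4 spontaneous tumors (Fisher's exact test p = 0.242). Those reaching the members held 7866 probe values, again with some below the bound, and over all autosomes 7.39% of values lay in called losses. PHx5M was then called over chr4:3463864-154958967 (2478 probes, mean -0.23) and Spon1M from 14536641 on (2374 probes, mean -0.24). Spon3F still counted only through regions under 5 probes. The low levels along the region thus lay under the filter of 0.4, and the number of tumors with a loss followed the filter.

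The comparison between the groups asked whether chromosome 4 differed between tumors that followed PHx and spontaneous tumors. The mean of the tumor medians was -0.01 ± 0.11 (SD, n = 6) after PHx and -0.11 ± 0.16 (SD, n = 6) in spontaneous tumors, a difference of 0.10 (two-sided exact permutation test over 924 splits, p = 0.21), within the spread of the tumors, and the groups overlapped. Sex was unequally spread over the groups. Within males the difference was 0.25 and within females 0.08 (exact permutation p = 0.133 in each, over 15 splits), and with tumors permuted within sex the mean of the 2 differences was 0.16 (exact permutation p = 0.00889 over 225 splits). This last value lay under 0.05 where the comparison without sex did not, but the chromosome was chosen on the low ratios of these same tumors, so it is no independent evidence of a difference. On slide 2, the one slide that held both groups, the sign turned, with a difference of -0.03 (exact permutation p = 1 over 6 splits), and it held PHx5M. Without Spon1M, Spon2M and Spon3F, which shared a slide and a pattern of single probes described below, the difference was 0.02 (exact permutation p = 0.774). Both male spontaneous tumors stood on slide 3 with no post-PHx tumor, so among males slide and group cannot be told apart.

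By single bins, limma called 0 of the 122 chromosome 4 bins between the groups at an adjusted p of 0.05, and 0 of 2057 bins over all autosomes (0.0%). The lowest adjusted p on chromosome 4 was 0.763 (limma), and the bin with the lowest unadjusted p, chr4:149000001-150000000, had means of 0.02 after PHx and -0.20 in spontaneous tumors. At an unadjusted p under 0.05 there were 19 chromosome 4 bins, all higher after PHx, against 5.88% of all bins. Nothing is read from this count, because the chromosome was chosen for low ratios in tumors that include Spon1M and Spon2M. With sex in the model 92 of the 122 bins had an unadjusted p under 0.05, against 12.5% of all bins, and the lowest adjusted p was 0.279 (limma). With slide in the model 0 of the 122 bins did, against 1.51% of all bins, and the direction turned. The median difference over the chromosome 4 bins, post-PHx minus spontaneous, was then -0.05 with 29 of 122 bins higher after PHx, against 0.11 and 118 bins without slide. Without Spon1M, Spon2M and Spon3F 0 of the 122 bins had an unadjusted p under 0.05, against 6.42% of all bins.

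The genes were grouped in 4 lists, and a gene's value is the mean of its own probes. Of the 1119 named genes of the region, 716 (64.0%) were below -0.1 in PHx5M, Spon1M and Spon2M together, against 6.85% of the genes of all autosomes. The region was chosen for this pattern. Of 43 hepatocyte and metabolic genes with a probe it was 28, of 26 immune and inflammatory genes 13, of 32 oncogenes and growth signalling genes 20 and of 31 tumor suppressor and DNA repair genes 21. The median over each list was -0.24, -0.17, -0.22 and -0.21 in PHx5M, against -0.22 over all named genes of the region.

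Among tumor suppressors, Cdkn2a, which encodes inhibitors of cell division, is covered by 2 probes at chr4:88759685-88763451. In post-PHx tumors it ranged from -0.24 in PHx5M over a median of -0.08 to 0.11, and in spontaneous tumors from -0.63 in Spon2M over a median of -0.16 to -0.04. The groups overlapped, and Spon2M was the lowest of the 12. Prdm2, a histone methyltransferase gene with 9 probes at chr4:142398653-142470767, ranged from -0.28 over 0.0066 to 0.05 after PHx and from -0.52 in Spon5F over -0.20 to 0.07 in spontaneous tumors. It followed the distal stretch, as did Kif1b, a kinesin gene, at -0.48 in Spon5F. Bach2, a transcription factor of lymphocytes far from that stretch, was at 0.15 in Spon5F and at -0.51 in Spon2M. Chd5, a chromatin remodeller, was at -0.43 in Spon5F and -0.61 in Spon3F. The Spon3F mean of Chd5 includes single low probes of the kind described at the end, at -0.992 and -2.34 from their surroundings.

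Among hepatocyte and metabolic genes, Orm1, which encodes an acute phase protein, was at -0.24 in PHx5M, -0.13 in Spon1M and -0.41 in Spon2M, and between -0.02 and 0.15 in the other 9 tumors. It thus showed the 3 low tumors without overlap, on a chromosome picked for them. Baat, which joins bile acids to amino acids, was at -0.28, -0.05 and -0.50 in these 3 tumors.

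Among immune genes, C8a, a component of complement, was at -0.25, -0.27 and -0.59 in PHx5M, Spon1M and Spon2M and below -0.1 in 6 tumors. Ripk2, a kinase of innate immune signalling, was at -0.24, -0.18 and -0.41 in them and at 0.83 in PHx2F, inside its proximal gain. The neighbouring cytokine genes Tnfsf8 and Tnfsf15 were less low in Spon2M, at -0.06 each, than in PHx5M, at -0.12 and -0.25. Among growth signalling genes, Pik3r3, a regulatory subunit of PI3 kinase, was at -0.42, -0.28 and -0.37 in the 3 tumors and between -0.04 and -0.02 in the other 5 post-PHx tumors. Its median over the spontaneous tumors was -0.17, and it was below -0.1 in 6 tumors in all. Lepr, the leptin receptor gene, was at -0.39, -0.34 and -0.28 in the 3 tumors and below -0.1 in 7 tumors in all. Musk, a receptor kinase of muscle, was at -0.30, -0.12 and -0.35 and below -0.1 in 4 tumors in all. Lin28, an inhibitor of let-7 processing, was at -0.27, -0.24 and -0.39 and lowest in Spon3F at -0.57. The Spon3F mean of Lin28 includes a single low probe of the kind described at the end, at -2.04 from its surroundings. These single-gene values rest on 2 to 9 probes each.

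Spon3F had a chromosome 4 median near 0 but held many single low probes. Probes at least 0.8 below the median of the 51 probes around them numbered 121 of 2361 (5.13%) on the members, against 4.19% on all autosomes. Of the 121, 97 had no such probe next to them. Their share was 10.7% from the Spon5F step to the end of the chromosome and 3.65% before it, so the distal mean of Spon3F was -0.17 with a median of 0.03, and the mean without these probes was 0.03. In Spon3F the median deviation of their Cy5 signal from the other arrays was -1.66, against 0.18 for the other members, and that of their Cy3 signal 0.11, against -0.0064.

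The same probes deviated in 2 other arrays of slide 3. In Spon1M their median difference from their surroundings was -0.19, with 26 of 121 under -0.8. In Spon2M it was 0.22, with 29 of 120 above 0.8, that is, in the opposite direction. In the remaining 9 arrays the median difference lay between -0.02 and 0.08. Across member probes, which are not independent replicates, the deviations correlated with r = 0.554 between Spon1M and Spon3F (2350 probes) and r = -0.322 between Spon1M and Spon2M (2361 probes). The pair of probes from Fblim1 to BC025833 at chr4:140871002-140886336 showed this pattern, with a called loss in Spon1M (mean -2.32) and Spon3F (-1.42) and a called gain in Spon2M (1.61). With the probes chosen in Spon3F left out, 0 tumors had a called loss at the filter of 0.4. The chromosome 4 medians of PHx5M, Spon1M and Spon2M did not rest on them, and moved by less than the spread between tumors without them. The source of the single-probe pattern was not tested.

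**Figure D5:**
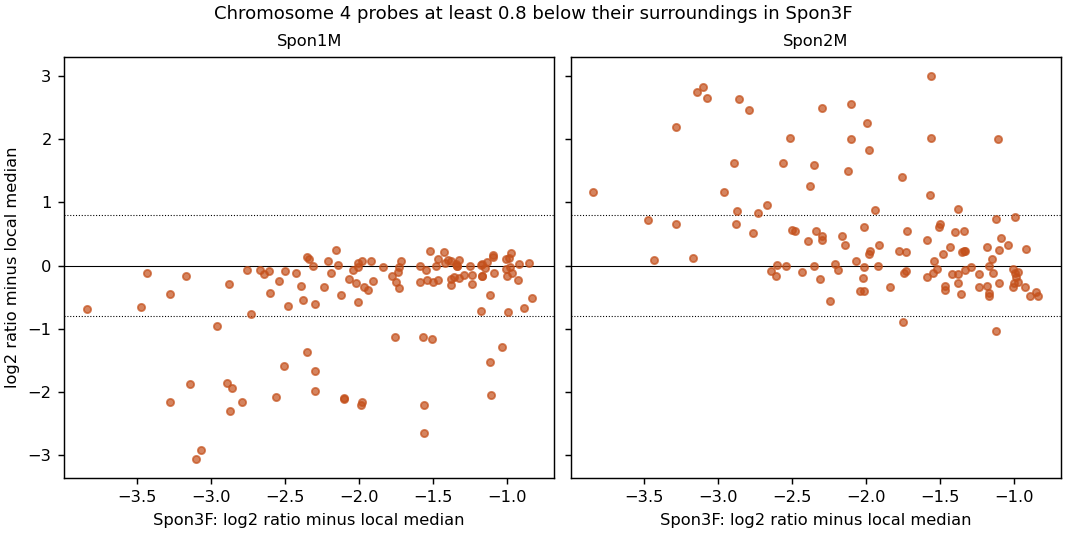
Log2 ratio minus the local median of 51 probes for the 121 chromosome 4 probes chosen as low in Spon3F, in Spon1M (left) and Spon2M (right) against Spon3F. Points under the lower dotted line (-0.8) number 26 in Spon1M, and points over the upper one (0.8) number 29 in Spon2M.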

How the data were processed

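aCGH was performed by the authors on Agilent 44K arrays, with 12 tumors against the matched non-tumor livers. The authors deposited the scanner output of Agilent Feature Extraction 10.5.1.1, which holds for each spot the mean and background intensities of both channels, the log10 ratio of Cy5 over Cy3 after background subtraction and dye normalization, and its error as a score in log10 units, per the file headers. Positions are those of mm8.

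The deposited log10 ratios were converted to log2. Control spots and outlier-flagged spots were dropped, replicate spots were combined by their mean, and the autosomal median of each array was subtracted. Regions were called by an interval score weighted by the deposited errors. Groups were compared with exact permutation and Fisher's exact tests, and 1 Mb bins of at least 3 probes with the limma package (lmFit and eBayes, version 3.58.1, R 4.3.3), adjusted by Benjamini-Hochberg over all autosomal bins. limma and the caller were tested on simulated data. Other steps used Python 3.11.15 with scipy 1.17.1. MicroRNA sequences and neighbours came from RefSeq (GRCm38.p6), to which 820 gene names of the region were matched.

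The region, the gene lists and the tests were chosen with earlier results of these data known. Named were Cdkn2a, the 4 genes with the most probes per list (2 of which are not reported here), the farthest 1 Mb bin of each tumor, and the lowest and highest 10 Mb window. The microRNAs, the genes around steps, the members of lists named beyond these, and the probe pair at Fblim1 were chosen after values were seen. Tumor numbers only name tumors, since no label pairs them, and the deviations of same-numbered tumors from their group means correlated from -0.143 to 0.4. The alternatives were normexp (offset 50), other centrings, only probes well above background, the mean, all of chromosome 4, 5 Mb bins, tumor number, sex or slide as a model term, other caller settings and leaving out tumors. Each tumor is 1 sample. The sample labels do not state that all came from separate mice. The authors describe their aCGH maps as those of 6 post-PHx and 6 untreated mice.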

Additional observations from a re-analysis of the deposited data

Results flagged for a closer look

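Each value was compared with the other 5 of its group by the gap to the nearest value over the whole range of the group (limit 0.625 for 6 tumors). Chance passes this limit in about 1 of 20 groups, and 8 of 36 groups passed it. The 2 numbers cannot be set against each other, because the chromosome was chosen for low ratios in some of these tumors, the step was placed on the values of Spon5F, and several of the 8 share a tumor. The causes were not tested.

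The chromosome 4 median of PHx5M, -0.22, lay far below the other post-PHx tumors, the nearest of which was at -0.00012. The genes Pik3r3 (-0.42) and Prdm2 (-0.28) stood apart in the same tumor. The median of the first 15 Mb of chromosome 4 in PHx2F, 1.45, stood above the next value of 0.08, and Ripk2, inside the same gain, was at 0.83 in it. In Spon5F the level beyond the step in Epha8 minus that before it was -0.40, against -0.02 in the nearest spontaneous tumor. In Spon2M, Baat (-0.50) and Cdkn2a (-0.63), both with 2 probes, stood below the other spontaneous tumors.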

How the results depend on the processing

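The chromosome 4 median of every tumor moved by less than the spread of its group under all 8 alternatives tried for it (96 comparisons, largest move 0.09), and the Spon5F step kept its size under the 7 tried for it. The group difference kept its direction and stayed above the threshold in 21 of 23 alternatives. It reversed within slide 2 (-0.034) and passed the threshold when permuted within sex (0.16, exact permutation p = 0.00889), on ratios that had also chosen the chromosome. Leaving out each tumor gave differences of 0.05 (without Spon2M) to 0.14 (without PHx5M). limma called 0 chromosome 4 bins under all 23 alternatives, and with tumor number as a replicate block it also called 0, with 20 bins at an unadjusted p under 0.05 against 19 without it. The number of tumors with a called loss, 2, became 4 with a filter of 0.25, 5 with a filter of 0.1, 5 with equal probe weights, 0 with at least 5 probes and 0 without the probes isolated in Spon3F, an alternative added after seeing the data, as was leaving out Spon1M, Spon2M and Spon3F together. With equal probe weights the 5 were PHx2F, PHx3M, Spon1M, Spon3F and Spon4F, so 2 post-PHx tumors then had a called loss. With the filter of 0.1 they were PHx5M, Spon1M, Spon2M, Spon3F and Spon5F. Leaving out single tumors gave 1 to 2, with 1 without Spon1M or Spon3F. The cause was not tested beyond the construction of these settings. A correction for probe GC content was not run because the deposited files used here hold no probe sequences. Signal over background was 3.93 to 12.8 in the Cy3 and 3.30 to 8.43 in the Cy5 channel, and shallow levels over few probes are not resolved at this spread. In Cy3 it was 3.93 to 6.52 on slide 1, which held only post-PHx tumors, against 8.81 to 12.8 on the other slides.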
